A study of Canis lupus familiaris with 17 samples.

Results

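Mature B cells were taken from the circulating leukocytes of 17 dogs by the RNA they carried. A barcode was counted as a mature B cell when it held at least 1 UMI (unique molecular identifier, a tag that counts 1 captured RNA molecule) of both MS4A1 and PAX5, none of CD3E, fewer than 2 of the immature B cell genes SYT1, VPREB3, ERC2, KLHL14 and ADGRF1, and fewer than 2 of the activated B cell genes CACNB2, RASGRF2, AOX2 and ADAM32. The members were thus chosen by their measured UMI counts of these 12 genes. The rule returned 1776 mature B cells among 84345 barcodes kept, or 2.11%. It misses B cells in which MS4A1 or PAX5 was not detected, so this is not the abundance of mature B cells. A wider gate, without CD3E and with at least 2 of MS4A1, PAX5, TNFRSF13C and EBF1, held 6899 barcodes. The members made up 55.0% of the 3229 gated B cells, meaning barcodes with MS4A1 and PAX5 and without CD3E. The others were 966 immature-gated, 246 activated-gated and 241 with genes of both sets. This split depended on depth. With every barcode thinned to 1500 UMIs, members were on average 79.7% of gated B cells in healthy dogs and 77.5% in dogs with osteosarcoma.

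The study compared 7 clinically healthy dogs with 10 dogs with osteosarcoma (OS), a malignant bone tumor, that had received no treatment before blood collection. All were client-owned animals rather than a laboratory strain, and each library came from 1 dog. Leukocytes had been isolated from EDTA blood on a density gradient, red blood cells were lysed, and 3' RNA libraries were made on a droplet instrument, 1 library per dog. The dog was the replicate in every comparison.

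B cells are the lymphocytes that carry immunoglobulin as their antigen receptor. PAX5 and EBF1 are transcription factors that hold the B cell program in place, MS4A1 encodes the surface protein CD20, and signals through the B cell receptor are passed on by kinases such as SYK, LYN and BTK. Mature B cells in blood include naive cells, which carry IgM and recirculate through lymphoid tissue, and memory cells, many of which have switched to another immunoglobulin class.

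Between 11 and 231 mature B cells were found per dog (median 102). Healthy dogs gave 87 to 231 (median 130) and dogs with OS 11 to 154 (median 81). Members were close to the limits of the rule: 50.2% held a single MS4A1 UMI and 33.1% a single PAX5 UMI. Of the members, 820 held none and 956 held 1 of the immature genes, while 646 further gated barcodes just outside the limit held 2. None of the activated genes was found in 1064 members and 1 in 712, and 206 barcodes just outside held 2. The median member had between 3336 and 5545 UMIs per dog, fewer than the median kept barcode (3675 to 6718) in each dog except H7 (4196 and 3675), and 4.06 to 5.98% of its UMIs came from mitochondrial genes. One member barcode sequence occurred in 2 libraries.

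The library of H2 stood apart from the others. Its members had the lowest summed level of 10 ribosomal protein genes, 10096 CPM (counts per gene scaled to 1 fixed total per dog), against 20834 to 28282 CPM in the other healthy dogs, and its shallowest member had 3995 UMIs where those of the other healthy dogs had 608 to 1715. OS3, with 21 members, was also low in ribosomal genes (14047 CPM), and it did not enter the tests of genes. Several results that moved without H2 are given with and without it.

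The label was described by its 5 markers. They set members against cells outside the B cell gate and cannot tell mature from immature-gated B cells. CPM values were computed from the UMIs summed over the members of a dog. For comparison, "other barcodes" were all kept barcodes outside the B cell gate, and T cells were barcodes with CD3E and without MS4A1. MS4A1, PAX5, CD3E and the 9 immature and activated genes chose the members, and values of the same cells selected them, so their levels and every comparison of members with other barcodes are descriptions without a test. MS4A1 (ENSCAFG00000010381) was counted at a median of 397 CPM (286 to 535 over 17 dogs) in members and 5.40 CPM in other barcodes. PAX5 (ENSCAFG00000002357) was at 582 CPM (406 to 847) in members and 16.5 CPM in other barcodes.

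The other 3 markers took no part in the rule, and each was higher in members than in other barcodes in 17 of 17 dogs. The study listed these 3 for its naive and class-switched B cells on the same dogs, so they are no independent evidence. BANK1, a B cell scaffold protein that links receptor signals to calcium release, was at 1157 CPM (873 to 2039) against 224 CPM, a median log2 ratio of 2.42. EBF1 was at 369 CPM (293 to 759) against 17.4 CPM, a log2 ratio of 4.31. TNFRSF13C, the receptor for the B cell survival factor BAFF, was at 637 CPM (266 to 765) against 25.01 CPM, a log2 ratio of 4.44. When each cell was thinned to 1500 UMIs, BANK1 was found in 77.5% of members and 2.51% of T cells, TNFRSF13C in 57.4% and 0.874%, and EBF1 in 43.9% and 0.321%. H2 held the highest BANK1 and EBF1 and the lowest TNFRSF13C of all 17 dogs. Against immature-gated cells, EBF1 was lower in members (369 and 497 CPM, higher in 2 of 17 dogs), and TNFRSF13C was at 637 and 628 CPM.

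**Figure D1:**
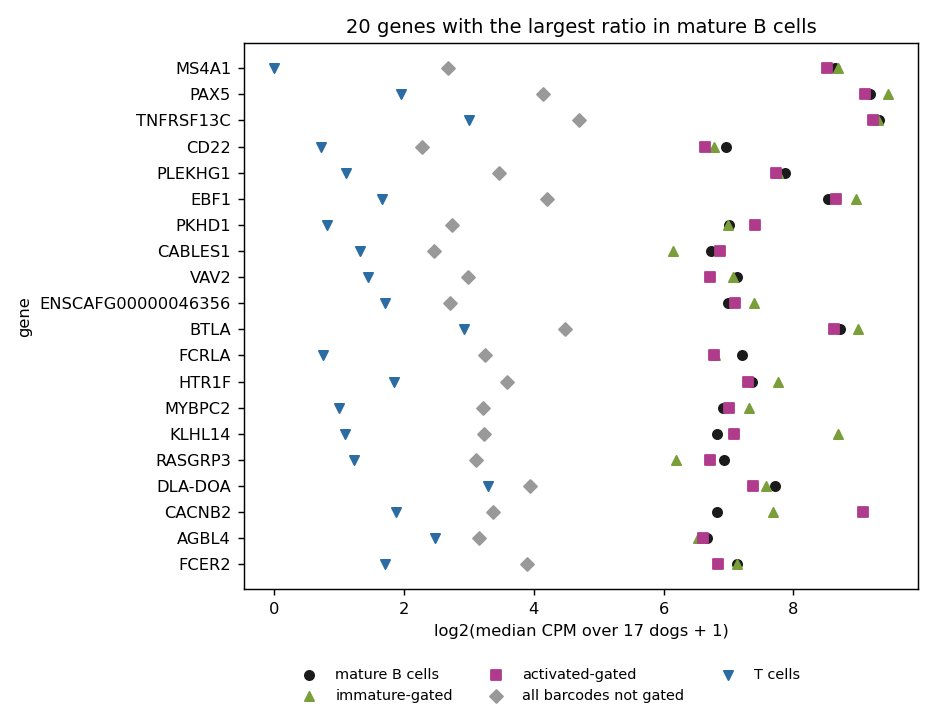
Median CPM over 17 dogs on a log2(CPM + 1) axis for the 20 genes with the largest ratio in mature B cells among genes with at least 100 CPM there. Circles are mature B cells, triangles pointing up immature-gated and squares activated-gated B cells, diamonds all barcodes outside the gate and triangles pointing down T cells; the 3 B cell gates lie close together for most genes, and KLHL14 and CACNB2, which the rule used, separate them.

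The 20 genes with the largest ratio held further B cell surface proteins. CD22, a receptor that dampens B cell receptor signals, was at a median of 123 CPM in members (log2 ratio to other barcodes 4.38). BTLA, an inhibitory receptor shared with some T cells, was at 420 CPM (4.19). FCER2, which encodes the IgE receptor CD23, was at 139 CPM (3.33) and was found in 21.4% of thinned members and 0.266% of T cells. FCRLA, an intracellular Fc receptor-like protein of B cells, was at 146 CPM (3.91). The group also held signalling genes: VAV2, a guanine nucleotide exchange factor, was at 139 CPM, and RASGRP3, an exchange factor for Ras, at 121 CPM. The remaining genes were PLEKHG1, PKHD1, CABLES1, MYBPC2, AGBL4, HTR1F, DLA-DOA and ENSCAFG00000046356, beside MS4A1, PAX5, TNFRSF13C, EBF1, KLHL14 and CACNB2; the plot of the 20 genes shows their levels.

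Gene lists were then read by role. Over all 10194 genes with a median above 0 CPM in members, the median log2 ratio to other barcodes was 0.03, and 728 genes were higher and 1045 lower in all 17 dogs. Without MS4A1 and PAX5, which the rule used, 15 of 20 measured B cell identity genes were higher in all 17 dogs and 1 was lower, with a median log2 ratio of 3.13. CD79B, a signalling chain of the B cell receptor, was at 28.1 CPM against 1.17 CPM. CD79A, its partner chain, did not separate the cells: it was at 6657 CPM in members and 8573 CPM in T cells and was found in 97.1% of thinned members and 98.5% of T cells. Whether the counts given to CD79A come from that gene was not tested, so they are no evidence that T cells carry it.

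Of 22 transcription factors of B cells other than PAX5, 13 were higher in members in all dogs and 4 lower in all, with a median log2 ratio of 1.38. BACH2, a repressor that holds back plasma cell differentiation, was at 2908 CPM (1641 to 5764) against 434 CPM in other barcodes, MEF2C at 1446 CPM against 239 CPM, BCL11A at 681 CPM against 84.9 CPM and POU2F2, an octamer-binding factor, at 489 CPM against 114 CPM. Genes of B cell receptor signalling were higher in all dogs for 10 of 20 and lower in all for none, with a median log2 ratio of 0.97. The adaptor BLNK was at 254 CPM against 32.0 CPM, PLCG2, the phospholipase downstream of BTK, at 345 CPM against 81.9 CPM, and BTK at 151 CPM against 39.5 CPM. LYN did not separate members from other barcodes in every dog (571 and 510 CPM, higher in 12 of 17), although T cells held only 58.9 CPM.

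Antigen presentation genes were high. Of 11 measured genes of the MHC class II pathway, 8 were higher in all 17 dogs, with a median log2 ratio of 1.07. DLA-DRA, a class II chain, was at 4765 CPM (3295 to 5490) in members, 2149 CPM in other barcodes and 1321 CPM in T cells. CD74, the invariant chain, was at 2397 CPM against 1366 CPM, HLA-DQB2 at 1580.0 CPM against 758 CPM, and CIITA, the regulator of class II genes, at 278 CPM against 67.2 CPM. DLA-DOA, which tunes peptide loading in B cells, was at 209.8 CPM against 14.3 CPM.

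Survival genes differed among themselves. CD40, the receptor for T cell help, was at 70.4 CPM against 8.19 CPM, and BCL2, which blocks apoptosis, at 1293 CPM against 525.98 CPM. TNFRSF13B, a second BAFF receptor, was at 34.8 CPM against 5.06 CPM. TNFRSF17, the receptor of plasma cells, was at 1.595 CPM against 5.58 CPM. Homing genes did not move as a group: 3 of 18 were higher and 6 lower in all dogs (median log2 ratio −0.27). CXCR5, the follicle homing receptor, was sparse but higher in all dogs (12.1 and 0.711 CPM), as was GPR183 (128 and 70.3 CPM), a receptor that positions B cells in lymphoid tissue. CCR7 was at 72.3 CPM against 79.2 CPM, higher in 5 of 17 dogs. Among Toll-like receptors and their partners, TLR7 was higher in 17 dogs (22.9 and 2.04 CPM), TLR9 in 15 (9.36 and 1.16 CPM) and TLR10 in 14 (7.72 and 1.78 CPM).

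Few activation or cytokine genes were high. Of 21 activation genes none was higher in all dogs and 6 were lower (median log2 ratio −1.36). CD86, a costimulatory ligand, was at 12.0 CPM against 84.3 CPM, and NR4A1, an early gene of receptor signalling, at 66.8 CPM against 105 CPM. Of 16 cytokine genes 2 were higher and 9 lower in all dogs (median log2 ratio −1.67). LTB, a subunit of lymphotoxin, was one of the higher genes, at 1187 CPM against 549 CPM.

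Immunoglobulin genes varied widely between dogs. Only 3 of the 17 listed immunoglobulin genes were measured under these names, so class switching could not be read from the constant regions. IGHM, the heavy chain of IgM, was at a median of 144 CPM and ranged from 25.6 to 332 CPM over dogs; at 1500 UMIs it was found in 20.3% of members and 3.57% of T cells. IGKC, the kappa light chain, ranged from 0 to 3628 CPM (median 765 CPM) and was found in 12.2% of members and 0.859% of T cells. Both can share reads with near-identical immunoglobulin genes, and their split is uncertain. JCHAIN, which joins secreted IgM and IgA, was at 34.4 CPM, and CD27, a memory B cell marker in humans, was found in 0.0567% of members but 3.43% of T cells.

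Markers of other cells were low with several exceptions. Of 10 T cell genes 9 were lower in all dogs (median log2 ratio −5.46), CD3G was found in 0.567% of thinned members and 34.4% of T cells, and IL7R in 0.510% and 55.3%. CD3D, however, was found in 17.5% of members (142 CPM) and 46.0% of T cells. Summed over the T cell list, members held 47.7 to 190 CPM in healthy dogs and 99.7 to 301 CPM in dogs with OS; CD40LG, LAT, CD7, TRAT1 and CD28 had a median of 0. All 9 measured myeloid genes were lower in all dogs (median log2 ratio −4.20), and S100A12 was found in 1.13% of members. LYZ, which encodes lysozyme, was nevertheless found in 51.4% of members and 8.11% of T cells (825 and 587 CPM, against 6663 CPM in other barcodes). The myeloid list summed to 394 to 1679 CPM in healthy members and 306 to 3014 CPM in OS members, and CSF3R had a median of 0. NK cell and plasma cell genes were higher in all dogs for none of 9 and none of 10. Of 6 plasmacytoid dendritic cell genes, 1 was higher and 3 lower in all dogs. Their sum had medians of 400 CPM in healthy and 363 CPM in OS members against 139 CPM in other barcodes. TCF4 alone was at 274 to 512 CPM in members. Of 6 platelet and erythroid genes, 0 were higher and 0 lower in all dogs (median log2 ratio −1.15). Where members were held to cells without CD3D, CD3G, LYZ and S100A12, the difference in their share of kept barcodes described below kept its direction (−0.216 percentage points, exact rank-sum p = 0.0185). This left out most members: 7 to 43 cells per healthy dog and 1 to 17 per dog with OS remained, on average 0.408% and 0.192% of kept barcodes. Whether the remaining cells were purer was not tested.

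Next to the gated cells left out by the rule, members differed in the levels of several listed genes, again as a description since the gate used the same cells. Depth differed too: the median immature-gated barcode held more UMIs than the median member in each dog except OS3 (3912 and 4139) and OS5 (4477.5 and 4841). Against immature-gated cells, BACH2 was lower in members in 17 of 17 dogs (2908 and 5552 CPM, log2 ratio −0.997). FOXO1 (−0.46) and FOXP1 (−0.52), transcription factors of early and naive B cells, and BLNK (−0.59) were higher in members in 0 of 17 dogs. CRIP1, a LIM domain protein, was higher in 17 dogs (2078 and 812 CPM, log2 ratio 1.13), as were CD44, an adhesion receptor for hyaluronan (175 and 97.9 CPM, 1.25), and VIM, encoding the filament protein vimentin (1245 and 533 CPM, 1.18). ITGB1, ANXA2 and TNFRSF13B were higher in 16 of 17 dogs, with log2 ratios of 1.21, 1.31 and 1.15. IGHM was at 144 CPM in members, 233 CPM in immature-gated and 251 CPM in activated-gated cells. RASGRF2 and ADAM32, which defined the activated gate, were at 27.2 and 39.7 CPM in members and 166 and 259 CPM in activated-gated cells.

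The first comparison between groups asked whether barcodes that met the rule made up a smaller part of kept barcodes in dogs with OS. Of the kept barcodes, healthy dogs held 2.76% ± 0.61 (SD, n = 7) as members and OS dogs 1.68% ± 0.93 (SD, n = 10). Healthy dogs ranged from 1.83 to 3.83% (median 2.74%) and dogs with OS from 0.200 to 3.02% (median 1.68%), so that the groups overlapped, with 7 of 10 dogs with OS below the lowest healthy dog. OS5 was lowest with 11 of 5504 barcodes (0.200%, exact 95% interval 0.0998 to 0.357%), and OS4, OS6 and OS8 lay within the healthy range. The difference of −1.08 percentage points had an exact Wilcoxon rank-sum p of 0.033 (two-sided) and an adjusted p of 0.165 over the 5 shares tested, and it did not pass the correction. Leaving out single dogs moved the difference between −1.23 and −0.897 points and the exact p between 0.00787 and 0.0727; p was above 0.05 without H1, H5, OS1, OS2, OS3, OS5, OS7, OS9 or OS10. A share falls when other leukocytes rise, so fewer B cells and more other cells cannot be told apart.

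**Figure D2:**
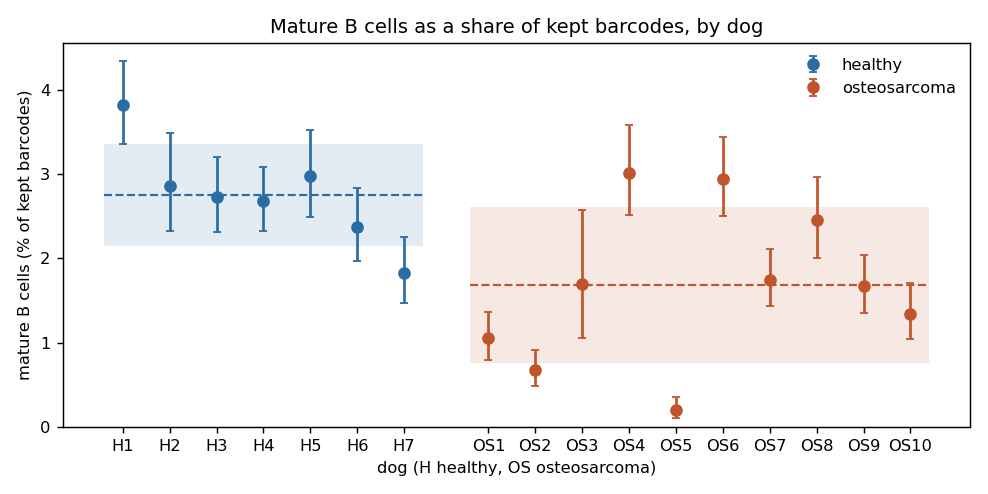
Mature B cells as a percentage of kept barcodes in each dog; bars are exact 95% intervals that cover counting error only, dashed lines are group means and shaded bands are ± 1 SD over dogs. The 7 healthy dogs lie between 1.83 and 3.83%, and 7 of 10 dogs with OS lie below them.

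Age differed between the groups in the demographics of the study. With the dogs with OS below 9 years only, the difference was −0.653 points (exact p = 0.106). A score over 10 X-linked genes in members went against the sex recorded beside the age in 5 dogs: H2, OS6, OS7, OS8 and OS9. Single genes did not all follow it. KDM5C was at 54.6 CPM in H2 (recorded male), below the 76.7 to 104 CPM of healthy females. It was at 86.0 and 80.6 CPM in OS7 and OS8 (recorded female) and 87.4 and 91.6 CPM in OS6 and OS9 (recorded male). The score does not show that labels were exchanged. The assignment of ages to libraries stays uncertain, and the part of age was not resolved.

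The composition of the gated and mature B cells did not differ detectably. Among gated B cells, healthy dogs had 55.9% ± 12.7 (SD, n = 7) members and OS dogs 54.6% ± 8.56 (SD, n = 10), with an exact p of 0.887. That difference was −1.32 points with H2 and −3.87 without it (exact rank-sum p = 0.492). At 1500 UMIs, IGHM was found in 17.6% ± 7.41 (SD, n = 7) of healthy members against 21.5% ± 12.8 (SD, n = 10) for OS (exact p = 0.536). Before thinning these shares were 29.6% ± 13.8 (SD, n = 7) and 41.0% ± 15.3 (SD, n = 10). Without H2, the IGHM difference at 1500 UMIs was 1.92 points, against 3.96 with it (exact rank-sum p = 0.792 without H2). After adjustment over the 5 shares, p was 0.887 for each of the 4 shares other than that of kept barcodes.

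Mature B cells were next described by the genes that the study listed for naive cells (HTR1F, NRIP1 and ADAM9) and class-switched cells (GOLM1, DYNC1I1 and MTMR2). The study chose both lists on these same samples, so their use here is no independent evidence of naive or switched cells. HTR1F encodes a serotonin receptor, GOLM1 a Golgi membrane protein, MTMR2 a lipid phosphatase and DYNC1I1 a subunit of the motor dynein. Among 1765 members with at least 1500 UMIs, HTR1F was found in 10.4% of cells with GOLM1 and 19.3% of cells without it, lower in 15 of 17 dogs. MTMR2 was found in 23.3% of cells with GOLM1 and 11.2% of cells without it (higher in 16 of 17 dogs), but in 5% of cells with HTR1F and 16.2% of cells without it (lower in 15). NRIP1 was found in 48.3% of cells with HTR1F and 29.6% of cells without it (higher in 16 dogs), and ADAM9 in 57.3 and 39.5% (higher in 15). The lists were not exclusive, since NRIP1 was found in 33.3% of cells with GOLM1 and 32.6% of cells without it. DYNC1I1 was found in 33.9% of cells with GOLM1 and 24.2% of cells without it, higher in 12 of 17 dogs.

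IGHM and FCER2 took no part in the lists kept for this split. IGHM was found in 28.7% of members with HTR1F and 18.6% of members without it (higher in 14 of 17 dogs), and in 14.8% of members with GOLM1 and 22.3% of members without it (lower in 12 of 17). FCER2 was found in 27% of members with HTR1F and 20.3% without it (higher in 12 of 17 dogs), but in 21.4% both with and without GOLM1 (higher in 10 and lower in 7 dogs). HTR1F was found in 7.41 to 27.6% of members in healthy dogs (median 17.1%) and 0 to 34.3% in dogs with OS (median 14.4%). GOLM1 ranged from 12.1 to 52.6% (median 28.7%) and from 7.81 to 47.6% (median 25.2%), and H2 held the highest value.

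**Figure D3:**
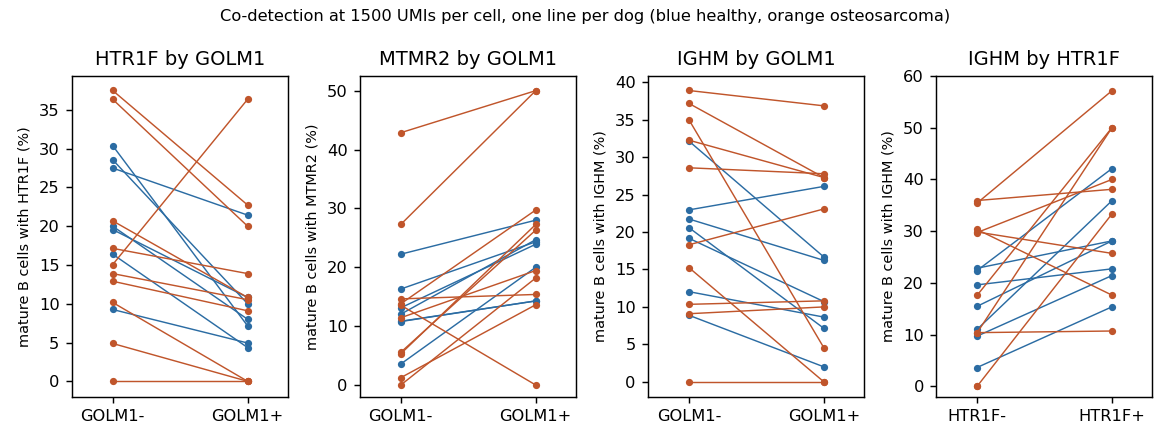
Percentage of mature B cells of a dog with HTR1F, MTMR2 or IGHM, split by whether GOLM1 or HTR1F was found in the same cell at 1500 UMIs; each line is 1 dog, blue healthy and orange OS. HTR1F is lower beside GOLM1 in 15 of 17 dogs, MTMR2 higher in 16, and IGHM higher beside HTR1F in 14.

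Members with genes of the first list alone are called naive-type here and members with genes of the second alone switched-type, as names of this rule. There were 599 naive-type (33.9%) and 318 switched-type cells (18.0%), while 548 members (31.0%) held genes of both lists and 300 (16.997%) of neither. The naive-type share per dog was 32.1% ± 10.7 (SD, n = 7) without disease and 31.3% ± 9.93 (SD, n = 10) with OS, for an exact p of 0.887. The switched-type share was 19.1% ± 5.65 (SD, n = 7) and 18.5% ± 5.43 (SD, n = 10), also with an exact p of 0.887. Without H2 the naive-type difference was −3.73 points (−0.832 with it), and the switched-type difference turned to 0.105 (−0.569 with it). The switched-type cells held more UMIs than naive-type cells of the same dog in 15 of 17 dogs.

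All other genes were then tested between both types within dogs with edgeR's quasi-likelihood test, leaving out the 6 genes that define the types and those of the members rule. At least 25 cells of each type were present in 4 dogs only, H1, H4, H5 and OS6. A gene was called where its log2 fold change exceeded 0.58 in size and its adjusted p was under 0.01. This held for 48 of 8583 genes (0.559%), with 20 higher (0.233%) and 28 lower (0.326%) in switched-type cells. Without H1 there were 19, and the balance turned to 14 higher and 5 lower. With at least 10 cells of each type, 14 dogs entered (7 healthy and 7 with OS) and 153 of 9821 genes were called (1.56%), 56 higher (0.57%) and 97 lower (0.988%). Of the 48 genes, 35 were also called with 14 dogs, and 47 had the same direction. The 4 dogs are among these 14, so this overlap is no independent support. These counts depended on the setting. With 4 dogs, DESeq2 called 10 genes, the fit without the block by dog 7, and fits without single dogs 19 to 39. With 14 dogs, DESeq2 and the fit without the block each called 61, and fits without single dogs 137 to 163. CPM values of the types used totals rescaled in the fit of 14 dogs, so they are not on the scale of the values given for members.

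CD44 and ITGB1, both adhesion receptors, were the 2 of 16 homing genes called higher in switched-type cells with 14 dogs (0.57% of all genes tested were), while CXCR4 was called lower. Among the named genes, TMSB10, encoding the actin-binding peptide thymosin beta 10, rose from 1920.2 to 4106 CPM in H1, 2322 to 4761 in H4, 1676 to 4867 in H5 and 1582 to 4755 in OS6 (log2 fold change 1.297 ± 0.08 SE, edgeR adjusted p = 4.62e-13), and it was higher in 12 of 14 dogs. CRIP1 rose from 1776 to 3187, 2026 to 5118, 1255 to 2645 and 1017 to 3570.4 CPM in the same dogs (1.25 ± 0.10 SE, adjusted p = 1.02e-10). CD44 rose by 1.35 ± 0.23 (SE; adjusted p = 0.000632) and was higher in 13 of 14 dogs, with medians over these of 122 and 262 CPM. ITGB1, an integrin chain, rose by 1.199 in 4 dogs and 0.98 in 14, and VIM by 0.89 and 0.83; each was higher in 11 and lower in 3 of 14 dogs.

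The list of B cell transcription factors held no gene called higher in switched-type cells. Of 20 tested, 7 had a positive fold change with 4 dogs and 6 with 14. With 4 dogs, 2 of 20 were called lower (BACH2 and FOXP1, against 0.326% of all genes tested). With 14 dogs, 3 of 20 were called lower (BACH2, FOXO1 and ZEB2, against 0.988%), with a median of −0.13. The named genes that rose included a few regulators outside that list. TOX, an HMG box factor best known from T cells, was at 0 to 139 CPM in naive-type and 0 to 285 CPM in switched-type cells over 14 dogs (medians 31.2 and 179.6 CPM). Its log2 fold change was 2.36 ± 0.27 (SE) with 4 dogs, adjusted p = 9.04e-07, and 1.91 with 14 dogs, of which 12 were higher and 2 lower. SOX5, a factor described in atypical memory B cells of humans, was higher in 13 of 14 dogs (1.93 with 4 dogs, 1.15 with 14). SSBP2, a single-stranded DNA-binding cofactor, was higher in 12 of 14 (1.62 and 1.53), with medians of 43.0 and 183 CPM. TRERF1, a transcriptional regulator (1.29 and 1.31), RSPO2, an enhancer of Wnt signals (2.71 and 2.45), and the unnamed genes ENSCAFG00000032358 (2.77 and 2.11) and ENSCAFG00000023111 (1.38 and 0.98) completed the 10 named. ENSCAFG00000032358 was higher in 14 of 14 dogs. RSPO2 was near the floor, at 0 to 24.5 CPM in naive-type and 0 to 93.3 CPM in switched-type cells over 14 dogs. It was lower in switched-type cells of H7, and its call was lost in 8 settings and kept in 21.

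BACH2, a naive-associated gene, was lower in switched-type cells in each of 14 dogs, by unequal amounts (3367 to 3094 CPM in H7, 3227 to 501 CPM in OS2). It fell from 4324 to 1976 CPM in H1, 2868 to 2209.8 in H4, 4686 to 1758 in H5 and 4520.4 to 1508 in OS6. The log2 fold change was −1.14 ± 0.11 (SE, edgeR adjusted p = 6.6e-09) with 4 dogs. With 14 dogs it was −1.205 ± 0.07 (SE, edgeR adjusted p = 2.69e-56), and BACH2 was lower in 14 of 14. The size of p depended on the model. With these 14 dogs the smallest adjusted p of any gene was 2.24e-11 by DESeq2 and 2.42e-07 by edgeR without the block. Over these 14 dogs naive-type cells ranged from 2868 to 5954 CPM and switched-type cells from 501 to 3093 CPM.

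Among the 10 named genes that fell, 4 were lower in switched-type cells in 14 of 14 dogs. PLAC8, a cysteine-rich protein of blood cells, had medians of 394 CPM in naive-type and 107 CPM in switched-type cells (log2 fold change −1.90 with 4 dogs, −1.39 with 14). TASP1, a protease that cleaves transcriptional regulators, had medians of 310.2 and 102 CPM (−1.38 and −1.54). ZNF318, a nuclear protein required in mice for IgD expression by mature B cells, had medians of 137 and 58.6 CPM (−1.62 and −1.36). DLGAP2, a scaffold protein known from synapses, had medians of 63.9 and 11.3 CPM (−2.68 and −2.0004). SBF2, EXT1, PKIA, MTHFD1L and PCNX2 were each lower in 12 of 14 dogs. ENSCAFG00000047763 was called with 4 dogs on a library at 209 CPM in naive-type cells of H1, while H4 was at 0 in both types, and was lower in 7 and higher in 2 of 14 dogs.

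**Figure D4:**
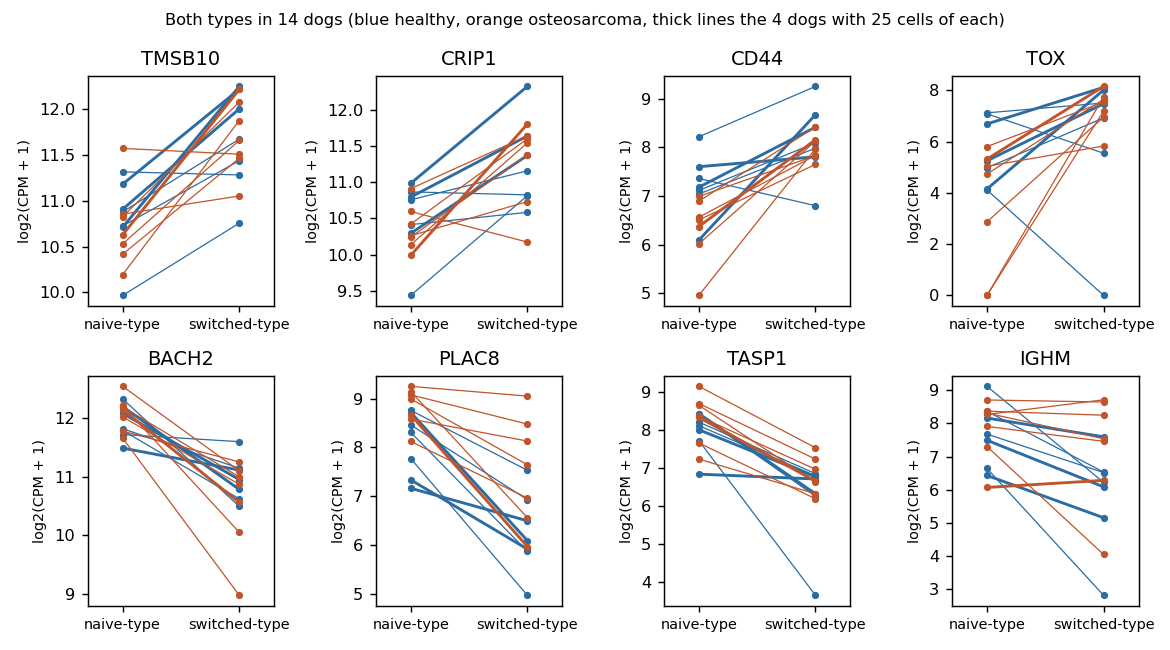
CPM of 8 genes on a log2(CPM + 1) axis in naive-type and switched-type members of 14 dogs, 1 line per dog, blue healthy and orange OS, with thick lines for the 4 dogs with at least 25 cells of each type. TMSB10, CRIP1, CD44 and TOX rise in 12 or 13 of 14 dogs, BACH2, PLAC8 and TASP1 fall in 14 of 14, and IGHM falls in 12.

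Read by list with 14 dogs, 5 of 15 genes associated with naive cells were called lower in switched-type cells (0.988% of all genes tested were). None of them was called higher, and the median log2 fold change was −0.55 against −0.06 over all genes tested. The genes called lower were BACH2, IGHM, IL4R, SATB1 and CXCR4. IGHM was at a median of 263 CPM (66.2 to 556) in naive-type and 91.2 CPM (6.04 to 419) in switched-type cells, lower in 12 of 14 dogs with a log2 fold change of −0.83 ± 0.14 (SE, edgeR adjusted p = 1.28e-06); with 4 dogs its adjusted p was 0.21. IL4R, the receptor of interleukin 4, fell by 1.39 and SATB1, a chromatin organizer, by 0.77. With 4 dogs, 4 of 13 were called lower (0.326% of all genes tested), among them BACH2, FOXP1 (−0.62) and BCL2 (−0.61), while IL4R, SATB1 and CXCR4 were not called. Of 17 genes associated with memory cells, 7 were called higher (0.57% of all genes tested were), with a list median of 0.62. ZEB2 alone was called lower (−0.74, but 0.49 and not called with types by GOLM1 and HTR1F alone). Beside CD44, CRIP1, VIM and ITGB1 the higher calls were ANXA2 (1.10), CD80 (1.36), a costimulatory ligand, and TNFRSF13B (1.25), whose medians were 21.1 and 47.3 CPM. With 4 dogs, the calls of the memory list were CD44, CRIP1, VIM and ITGB1, 4 of 17 (0.233% of all genes tested were called higher), with none called lower. None of 20 B cell identity genes and none of 11 class II genes was called, and BANK1 had a log2 fold change of −0.32 and DLA-DRA of −0.15. Most were still lower in switched-type cells with 14 dogs, 15 of 20 (median −0.24) and 10 of 11 (median −0.15). At an unadjusted edgeR p below 0.05, 8 and 4 were lower and 0 higher, against 743 lower of all 9821 genes. The smallest adjusted edgeR p-values were 0.00109 and 0.00139, without passing the fold change limit.

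Genes of other cell types moved with the types too. LYZ was lower in switched-type cells (log2 fold change −1.10, 12 of 14 dogs lower) and CD3D as well (−0.61, 13 of 14). The myeloid list summed to 465 to 4770 CPM (median 973 CPM) in naive-type and 282 to 2830 CPM (median 614 CPM) in switched-type cells, lower in 11 of 14 dogs, with CSF1R and CD68 among those at a median of 0. The T cell list summed to 29.7 to 321 CPM and 12.1 to 251 CPM, and CD3G, CD2 and IL7R were among those at a median of 0. The platelet and erythroid list had a median sum of 95.1 CPM in naive-type and 35.3 CPM in switched-type cells, lower in 9 of 14 dogs, and none of its 6 genes was called; GP1BB (−2.35) and TUBB1 (−2.13) were called lower with types by GOLM1 and HTR1F alone. The part of these lists in the differences between the types was not tested.

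When the types were set by GOLM1 and HTR1F alone, 9 dogs had at least 10 cells of each and 235 of 8769 genes were called (2.68%). Of these, 137 were higher and 98 lower, the opposite balance to that of the 14 dogs above. Of the 153 genes above, 109 were among these (71.2% of 153 and 46.4% of 235), all with the same direction. GOLM1 and HTR1F are among the 6 genes of the first split, and the 9 dogs are among the 14. The fits thus share cells, and their overlap is no independent support. BACH2, CD44, ITGB1, VIM, CRIP1, CD80 and ANXA2 were among the calls of the listed genes, while FCRLA was then higher and BANK1 lower. IGHM (−0.76, adjusted edgeR p = 0.0145) and TNFRSF13B (1.80, adjusted p = 0.0117) were not called in this fit.

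Whether the difference between the types itself differed in dogs with OS was asked with the interaction of type and disease. With 14 dogs, 3 of 9821 genes were called (0.0305%). ENSCAFG00000047066 had an interaction of −2.31 on the log2 scale (edgeR adjusted p = 1.97e-22); the switched-type cells of H4 held 9944 CPM and the next value of any dog was 1995 CPM. IGKC (−1.07) was higher in switched-type cells in 5 of 7 healthy but 2 of 7 OS dogs, and VCAN, a proteoglycan of monocytes (−3.07), in 5 of 7 and 3 of 7. IGKC was at 0 in the switched-type cells of OS7, OS8 and OS9. The highest VCAN, 397 CPM, was found in naive-type cells of OS6, followed by 165 CPM. With 4 dogs, OS6 alone had OS, so that fit set 1 dog against 3 and is no test of disease. In it 15 of 8583 genes passed both limits (0.175%), among them LYZ, which in OS6 was at 3628 CPM in naive-type and 430.9 CPM in switched-type cells. DESeq2 gave 0, with 24 at an unadjusted p below 0.05, and 2 of the 15 genes were called with 14 dogs.

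The last comparison asked which genes of mature B cells differed between dogs with OS and healthy dogs. It used 15 dogs, since OS3 and OS5 had fewer than 25 members. None of 10796 genes was called (0.0%) by edgeR's quasi-likelihood test, and 624 had an unadjusted p below 0.05, with 289 higher (2.68%) and 335 lower (3.1%) in OS. DESeq2 also called 0, with 467 at an unadjusted p below 0.05. The smallest adjusted p, 0.0729, belonged to CD68, a lysosomal protein of macrophages. It was at 0 in 6 of 7 healthy dogs and 1.70 CPM in the other, and at 1.595 to 15.8 CPM (median 5.45) in 8 of 8 dogs with OS, which is a few UMIs per dog.

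The genes with the smallest p in each direction are given as values that were not called. Picking by p favors genes whose groups lie apart, so the overlap and counts of dogs outside a range are descriptions only. How many of all genes tested lay apart to this degree was not counted. SLCO5A1, a member of the organic anion transporter family, was at 54.8 to 107 CPM (median 72.6) in healthy dogs and 7.98 to 54.0 CPM (median 30.1) in dogs with OS. The groups did not overlap, and the log2 fold change was −1.16 ± 0.25 (SE, adjusted p = 0.177). KCNQ5, a potassium channel, was at 189.9 to 699 CPM (median 265) and 119.6 to 244 CPM (median 173), with 7 of 8 dogs with OS below the lowest healthy dog. OS7 (189.7 CPM) and OS10 (189.2 CPM) were only just below it. The log2 fold change of KCNQ5 was −0.81, and −0.57 without H2, which held the highest value. INTS8, a subunit of the Integrator complex (−0.91), ACACA, the first enzyme of fatty acid synthesis (−0.64), and NBAS (−0.67) each had 7 of 8 dogs with OS below the healthy range. These counts leave out OS3 and OS5. OS3 was at 530 CPM of KCNQ5, 153 CPM of ACACA and 30.6 CPM of INTS8, none of them below the healthy range. Its NBAS and SLCO5A1, both at 30.6 CPM, were below. OS5 was below the range for SLCO5A1, INTS8, ACACA and NBAS but at 238 CPM of KCNQ5.

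FN1, encoding fibronectin and known in blood from monocytes, had the second smallest p among higher genes with a mean of at least 20 CPM: 6.36 to 36.1 CPM (median 10.5) in healthy dogs and 7.05 to 189 CPM (median 42.6) in OS, a log2 fold change of 2.29 ± 0.50 (SE, adjusted p = 0.177). The myeloid list summed to 394 to 1679 CPM (median 1302) in healthy members and 306 to 3014 CPM (median 1091) over all 10 dogs with OS, and all 8 myeloid genes tested had a positive fold change, with 4 higher at an unadjusted p below 0.05 (2.68% of all genes tested) and a median of 0.92. ENSCAFG00000014139 was high in 2 dogs, 585 CPM in OS7 and 905 CPM in OS8, and at 0 to 17.3 CPM in the other 13 dogs of the fit (20.4 CPM in OS3, which was not in it). UBE2M, an enzyme of the neddylation pathway (0.85), DTX3L, a ubiquitin ligase of the interferon response (0.64), and ENSCAFG00000014649 (0.94) were the others named.

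**Figure D5:**
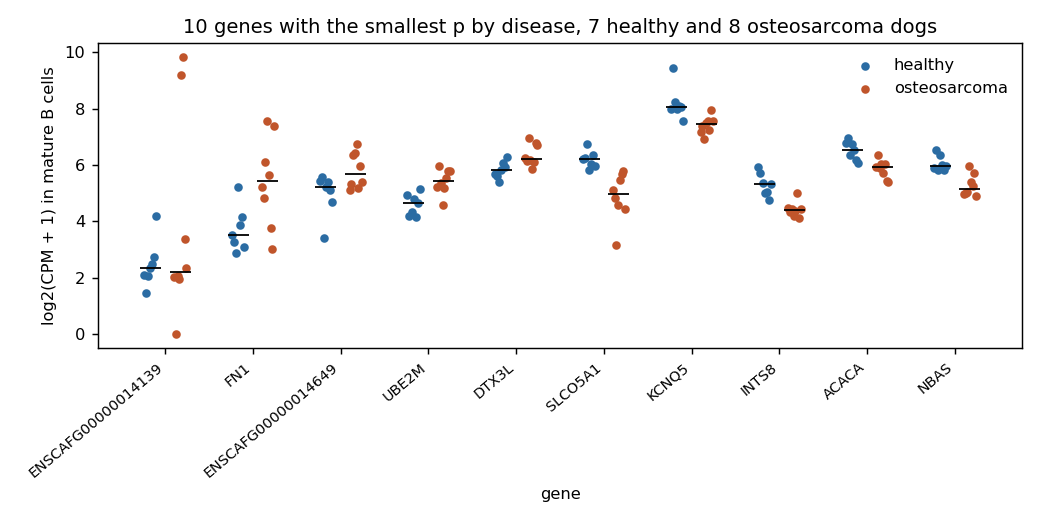
CPM on a log2(CPM + 1) axis in mature B cells of 7 healthy and 8 OS dogs for the 10 genes with the smallest p by disease at a mean of at least 20 CPM, none of them called; each point is 1 dog and the line is the median. Among these 10 genes, which were picked by p, SLCO5A1 alone has no overlap, and ENSCAFG00000014139 is high in 2 OS dogs.

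Gene lists by disease stayed near the median of all genes (−0.01) for B cell identity without the rule genes (20 tested, median 0.02), receptor signalling (20 tested, −0.08), class II genes (11 tested, 0.00) and survival genes (15 tested, 0.02). Of the label markers that took no part in the rule, EBF1 had a log2 fold change of −0.23, BANK1 of −0.20 and TNFRSF13C of 0.05; without H2 these were −0.09, −0.10 and −0.09. For interferon-stimulated genes the median was 0.32, with 12 of 18 positive and 5 higher at an unadjusted p below 0.05 (2.68% of all genes tested). MX2, an antiviral GTPase, was at 17.05 to 87.5 CPM (median 30.2) in healthy dogs and 54.2 to 129.9 CPM (median 64.1) in OS, with an unadjusted p of 0.0065 by edgeR. IFI44, OAS1, RTP4 and SAMD9L were the others, while ISG15 had a log2 fold change of −0.30. Without H2, RTP4 had an unadjusted edgeR p of 0.0523, which left 4 such genes, and ISG15 was at −0.50. None passed the adjustment over all genes. Medians further from 0 were found for activation genes (17 tested, 0.37) and immunoglobulin genes (3 tested, 0.40). Among markers of other cells, the median was 0.95 for NK cell genes (4 tested, all positive), 0.97 for platelet and erythroid genes (6 tested, 5 positive, 2 higher at an unadjusted p below 0.05) and −0.76 for plasmacytoid dendritic cell genes (3 tested, all negative, 2 lower at that level, against 3.1% of all genes tested), and none was called.

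The 3 switched-list genes used for the types were each lower in OS at an unadjusted p below 0.05 (3.1% of all genes tested were), with log2 fold changes of −0.55 for GOLM1, −0.45 for DYNC1I1 and −0.63 for MTMR2. Without H2 these values were −0.42, −0.33 and −0.44, with unadjusted p-values by edgeR of 0.103, 0.0344 and 0.0652. HTR1F (0.12), NRIP1 (−0.17) and ADAM9 (−0.12) did not reach that level. IGHM had a log2 fold change of 0.51 with an unadjusted edgeR p of 0.16.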

How the data were processed

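Leukocytes of 7 healthy dogs and 10 dogs with OS had been captured with a 10x Genomics 3' kit. The deposited values are counts, whole numbers of UMIs per gene and barcode in 1 matrix per dog, which the authors made with Cell Ranger 7.0.0 on CanFam3.1 and a filtered Ensembl annotation (20257 genes). The authors counted with and without intronic reads, and which setting these matrices hold is not given in the sources used here; intronic reads would raise long genes. Matrices held 7740230 to 56510134 UMIs. UMI totals and intervals cover counting error only.

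Kept barcodes (84345 of 93013) held between 200 and 4500 genes, between 500 and 20000 UMIs (limits excluded) and under 10% mitochondrial UMIs. Of these, 922 sequences occurred in more than 1 library. The members, gene lists and tests were chosen with earlier results of these data known. No doublets were removed in the main analysis; as an alternative the top Scrublet scores at 0.8% per 1000 barcodes were removed (43 members). For shares of cells with a gene, cells were thinned to 1500 UMIs, which left out 11 members. Healthy and OS shares were compared by a two-sided Wilcoxon rank-sum test with exact p-values, adjusted by Benjamini-Hochberg over 5 shares. The UMIs of a dog were added up where it gave 25 or more cells, genes with at least 10 counts were kept, and edgeR 4.0.16 (quasi-likelihood test, TMM) was used with calls where the log2 fold change exceeded 0.58 in size and the adjusted p was under 0.01; types were compared with the dog as a block. Log2 ratios to other barcodes used CPM plus a pseudocount of 1. Named were the label and rule genes, the 20 genes with the largest ratio at 100 CPM or more, the 10 called genes with the largest fold change in each direction at a mean of 20 CPM or more (or the 5 with the smallest p where none was called), and genes of each list with high levels or a call. The scripts were tested on simulated data. Alternatives were DESeq2 1.42.0, DESeq2 size factors, other filters and gates, age, replicate number and each dog left out. Tools were Python 3.11.15, scipy 1.17.1, scanpy 1.11.5 and R 4.3.3. Gene names are those of the files (4432 genes have an identifier only).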

Additional observations from a re-analysis of the deposited data

Results flagged for a closer look

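Within groups of 4 to 10 dogs, 8 of 48 sets of values held a dog whose gap to its neighbour was wide against the range of its group; chance gives about 1 in 20. H2 accounted for 4 of these, with 2039 CPM of BANK1 (next healthy dog 1249), 759 CPM of EBF1 (446), 699 CPM of KCNQ5 (304) and 266 CPM of TNFRSF13C (next 571). In the same library the ribosomal sum was the lowest of the healthy dogs and the shallowest member was deep, as given above; their part in the 4 values was not tested. ENSCAFG00000014139 was at 17.3 CPM in H7 (next 5.56). FN1 was at 36.1 CPM in H4 (next 16.7). INTS8 was at 31.0 CPM in OS8 (next 21.1), and HTR1F was at 442 CPM in OS8 (next 218).

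The edgeR test of the interaction of type and disease with 14 dogs called 3 genes, and DESeq2 was not run for it. ENSCAFG00000047066 had an interaction of −2.31 on the log2 scale: the median ratio of switched-type to naive-type was 1.11 in 7 healthy and −0.26 in 7 OS dogs, higher in 6 and 1 of these. IGKC had −1.07, with medians of 0.45 and −1.22, and VCAN −3.07, with medians of 0.53 and −0.33. Single libraries stood out: ENSCAFG00000047066 was at 9944 CPM in H4 (next dog 1995) and VCAN at 397 CPM in OS6 (next dog 165). IGKC was at 0 in the switched-type cells of OS7, OS8 and OS9. Types of a single dog held as few as 10 cells in this test.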

How the results depend on the processing

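The lower share of mature B cells in OS kept its direction in all alternatives run. Its exact p was above 0.05 with the dogs with OS below 9 years (−0.653 points) and with the replicate block (−1.14 points, p = 0.109); leaving out single dogs gave −1.23 to −0.897 points. The numbers shared by healthy and OS dogs do not pair the samples, since deviations of same-numbered dogs correlated between −0.096 and 0.065. Without single dogs, the share of gated B cells ranged from −3.87 to 2.56 points, the naive-type share from −3.73 to 1.63, the switched-type share from −1.62 to 0.654 and the IGHM share from 1.92 to 6.35. The naive-type difference turned without thinning (4.11 points) and with OS dogs below 9 years (3.51). The switched-type difference turned without thinning (1.94), without CD3D, CD3G, LYZ or S100A12 (3.91) and with the replicate block (1.82); none of these had a p below 0.05, and the cause was not tested.

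By disease, all alternatives and all fits without single dogs called 0 genes, except that the replicate block (10 dogs) called 1, ENSCAFG00000005494 (4.87, adjusted p = 0.00355). ENSCAFG00000014139 had a log2 fold change of −0.34 under DESeq2. The 48 genes between types became 10 with DESeq2, 23 with filterByExpr, 86 with no filter, 89 without doublets, 7 with no replicate block, 19 to 39 without single dogs (19 without H1, 24 without H4), 153 with at least 10 cells, and 235 or 258 by GOLM1 and HTR1F with at least 10 or 5 cells. With 14 dogs, DESeq2 and the fit without the block by dog each called 61, and leaving out single dogs 137 to 163. The 15 genes of the interaction with 4 dogs (OS6 against 3 healthy dogs) became 27 at an adjusted p below 0.05, 0 with DESeq2 and 3 with 14 dogs. Of the fits of single named genes by type, 484 kept direction and call and 94 lost the call. By disease no named gene was called; 248 fits kept the direction with no call and 1 turned. Not run for lack of cells were the fit by disease without CD3D, CD3G, LYZ and S100A12 and the types by GOLM1 and HTR1F with 25 cells. The median of 102 members per dog limits genes of low level.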
